A study of Mus musculus with 14 samples.

Results

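Immediate early genes are switched on within minutes of a growth factor, cytokine or stress signal, without any need for new protein. MAP kinase cascades activate factors that are already bound near their starts, such as the serum response factor with its ternary complex partners and the cyclic AMP response element binding protein, and the mRNAs that follow are short-lived. Fos and Jun family proteins pair through leucine zippers to form the AP-1 transcription factor, Egr1 and Npas4 are further transcription factors, and Dusp1 is a phosphatase that removes the activating phosphates from MAP kinases. In bone marrow work the same genes are also known to respond to tissue dissociation and cell sorting. Of the 55487 gene identifiers in the count tables, 10 members were described here: Fos, Fosb, Jun, Junb, Jund, Egr1, Ier2, Atf3, Dusp1 and Npas4. They were chosen by name as classic members of this class, with earlier results of these data known. Each was followed in all 14 libraries with attention to the spread between replicate libraries.

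The study asked how interleukin-1β (IL-1β), an inflammatory cytokine, acts on blood-forming and stromal cells in a mouse model of myeloproliferative neoplasm. LSK cells (Lin-Sca1+c-kit+, which hold the hematopoietic stem cells) and LK cells (Lin-c-kit+ myeloid progenitors) were sorted from bone marrow of mice on the C57BL/6 strain. Every donor mouse, control or treated, carried a heterozygous Jak2V617F knock-in allele (Jak2VF/+) with Mx1Cre, a Cre gene under an interferon-inducible promoter that had been switched on with pI-pC. Per the study's methods their marrow had been transplanted into lethally irradiated C57BL/6 recipients, so the non-blood cells of those animals came from the host and carried no knock-in allele. Recipients received PBS or 0.5 μg IL-1β 3 times a week for 16 weeks. The groups held 3 LSK and 3 LK libraries under PBS and 2 of each under IL-1β. Mesenchymal stromal cells (MSC) were grown for 21 days from wild-type C57BL/6 marrow and exposed to PBS or 5 ng/ml IL-1β for 72 h, with 2 libraries analysed per arm. The sorted cells therefore came from long-term treatment of living animals and the MSC from a culture. The study's methods describe young adult mice as used for the experiments, matched for age and sex. The sorted cells were taken after the transplant and 16 weeks of treatment, when the animals were older, and the labels give no age for single libraries. The labels do not say that libraries with different replicate numbers came from separate animals or cultures, so the p-values below measure the spread between libraries, which may in part be technical.

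The libraries held between 4393233 and 30871055 counted read pairs. Every IL-1β library of sorted cells, at 4393233 to 8641124 pairs, was shallower than every PBS library of sorted cells, at 12172400 to 18544346, and the part of depth in the results was not tested. Kit, the receptor used for the sort, stood at 267.6 to 533 CPM (counts scaled to the library total) in LSK and LK libraries. Ly6a, which encodes Sca1, reached 13.7 to 38.1 CPM in LSK and no more than 1.83 CPM in LK libraries. The MSC cultures expressed Col1a1 at 492 to 1570 CPM, but Lepr stood at 0 in both PBS libraries, and all 10 macrophage markers on the list were present in every MSC library, with a summed level of 14400 to 18500 CPM under PBS and 39300 to 40300 CPM under IL-1β. In LSK cells the summed level of 10 neutrophil markers was 1990 to 2800 CPM under PBS and 9040 to 10500 CPM under IL-1β, and in LK cells it was 4330 to 9240 and 16900 to 19700 CPM. In bulk RNA of this kind, fewer cells of a type and less RNA per cell cannot be told apart.

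Of the members, 6 are shown with the 150 bases that precede the RefSeq transcription start, because Fos, Fosb, Jun and Dusp1 varied together between libraries, Junb varied less, and Atf3 set the MSC apart. RefSeq promoter windows (GRCm38.p6) were matched for 8 of the 10 members. Sequences run 5′ to 3′ on the strand of the gene, and capitals mark the letters TGACG, the core of the cyclic AMP response element (CRE), on either strand, the full CRE TGACGTCA, the element TGACATCA, and the TATA box TATAAA. The windows lie at chr12:85473740-85473889 on the plus strand for Fos and, on the minus strand, at chr7:19310046-19310195 for Fosb, chr4:95052223-95052372 for Jun, chr8:84978749-84978898 for Junb, chr17:26508473-26508622 for Dusp1 and chr1:191183334-191183483 for Atf3. The Dusp1 and Atf3 windows lie inside the longer Ensembl gene spans, chr17:26505590-26562128 and chr1:191170296-191218039, upstream of the start that RefSeq lists here.
Fos: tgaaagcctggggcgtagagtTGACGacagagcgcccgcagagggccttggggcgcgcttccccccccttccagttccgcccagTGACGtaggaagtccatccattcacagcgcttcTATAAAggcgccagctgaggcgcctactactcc
Fosb: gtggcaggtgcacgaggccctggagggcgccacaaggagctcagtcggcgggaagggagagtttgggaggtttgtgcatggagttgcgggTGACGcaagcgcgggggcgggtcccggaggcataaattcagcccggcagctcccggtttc
Jun: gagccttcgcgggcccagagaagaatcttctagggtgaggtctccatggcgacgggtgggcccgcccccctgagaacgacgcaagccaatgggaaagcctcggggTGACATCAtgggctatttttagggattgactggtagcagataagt
Junb: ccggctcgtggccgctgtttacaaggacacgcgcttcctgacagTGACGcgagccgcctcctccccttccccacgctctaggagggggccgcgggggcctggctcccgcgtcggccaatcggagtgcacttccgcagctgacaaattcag
Dusp1: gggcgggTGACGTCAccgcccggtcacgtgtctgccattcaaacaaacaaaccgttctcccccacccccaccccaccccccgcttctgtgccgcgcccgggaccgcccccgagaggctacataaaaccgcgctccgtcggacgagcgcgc
Atf3: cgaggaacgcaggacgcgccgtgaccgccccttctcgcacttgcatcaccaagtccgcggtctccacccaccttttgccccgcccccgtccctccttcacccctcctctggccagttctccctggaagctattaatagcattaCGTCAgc
The CRE core was found in 5 of the 6 windows, with Jun the exception, against 13.3% of the 32851 RefSeq windows of this length. It began 66 and 129 bases before the start in Fos, 60 bases before it in Fosb and 106 bases before it in Junb, and it lay on the opposite strand, 7 bases before the start, in Atf3. Dusp1 was the only window of the 6 with the full CRE, at 143 bases before the start, a match found in 1.36% of all windows, and it contains the core on both strands. Jun held TGACATCA at 45 bases before its start, as did 2.32% of all windows, and Fos held TATAAA at 33 bases before its start, as did 7.57%. The AP-1 element TGACTCA was in none of the 6 and in 2.84% of all windows. These are matches of letters only, in 6 windows picked by how the genes behaved in these libraries. The matched windows of Jund and Npas4 were not among them.

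Levels are given as CPM after TMM scaling over all 14 libraries, always in the order of the replicate numbers. Fos encodes the founding Fos protein of AP-1. In LSK cells it stood at 3.64, 105 and 23.8 CPM in PBS libraries 1, 2 and 3, and IL-1β libraries 1 and 2 held 5.70 and 3.33 CPM. In LK cells the values were 3.66, 131 and 20.4 CPM under PBS and 11.6 and 5.06 CPM under IL-1β. In both populations PBS library 2 was far above the rest, PBS library 1 was as low as the IL-1β libraries, and the groups overlapped. Fosb, a close relative with the same partners, was lower and followed the same order. In LSK cells it stood at 0.331, 35.6 and 3.40 CPM under PBS and at 0.657 and 0 CPM under IL-1β. The LK values were 0.0779, 33.8 and 2.42 CPM under PBS and 0.733 and 0 CPM under IL-1β. The IL-1β libraries held only 6 Fosb read pairs in all in each population, PBS library 2 held 503 in LSK and 673 in LK, and the groups overlapped.

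Of the Jun family, Jun is the classic partner of Fos, Junb a partner that is also rapidly induced, and Jund the member usually expressed without a stimulus. Jun stood at 24.0, 195.7 and 153 CPM in LSK cells under PBS and at 23.2 and 6.43 CPM under IL-1β. LK libraries held 18.9, 233 and 75.3 CPM under PBS and 28.8 and 17.0 CPM under IL-1β. PBS library 1 was again the lowest PBS library, just above both IL-1β libraries in LSK cells and between them in LK cells. Junb stood at 36.4, 91.7 and 54.3 CPM in LSK cells under PBS and at 60.3 and 88.0 CPM under IL-1β. The LK libraries were at 43.8, 68.6 and 53.8 CPM under PBS and at 56.5 and 51.3 CPM under IL-1β. The Junb groups overlapped in both populations and its libraries lay closer together than those of Jun. Jund stood at 59.8, 95.7 and 93.7 CPM in LSK cells under PBS and at 30.4 and 78.7 CPM under IL-1β. Its LK libraries were at 88.8, 144 and 100.4 CPM under PBS and at 57.9 and 67.8 CPM under IL-1β. The Jund groups overlapped in LSK cells, while in LK cells both IL-1β libraries were below all 3 PBS libraries.

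Egr1 encodes a zinc finger factor that restrains stem cell cycling. It stood at 7.01, 7.29 and 13.5 CPM in LSK cells under PBS and at 4.16 and 2.88 CPM under IL-1β. The LK libraries held it at 2.65, 23.3 and 6.42 CPM under PBS and at 3.42 and 1.19 CPM under IL-1β. Here LSK library 3 was the highest, LK library 2 was the highest, and only the LSK groups did not overlap. Dusp1, the MAP kinase phosphatase, stood at 8.80, 33.3 and 24.7 CPM in LSK cells under PBS and at 4.27 and 5.77 CPM under IL-1β. Among LK libraries it was at 6.78, 58.7 and 13.5 CPM under PBS and at 6.96 and 4.02 CPM under IL-1β. Its order in the PBS libraries was that of Jun, with groups that did not overlap in LSK cells and overlapped in LK cells. Dusp1 overlaps 2 other annotated genes on its own strand, and read pairs shared with them were not counted for it. Ier2, a nuclear protein induced in the same wave, stood at 49.96, 151.6 and 93.5 CPM in LSK cells under PBS and at 62.2 and 92.5 CPM under IL-1β. Its LK values were 44.4, 74.6 and 69.1 CPM under PBS and 46.3 and 46.0 CPM under IL-1β. The Ier2 groups overlapped in both populations.

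Atf3, a stress-induced factor that pairs with Jun proteins, and Npas4, best known as an activity-dependent factor of neurons, were at or near the detection limit in sorted cells. Atf3 had at most 9 read pairs in any LSK or LK library. Npas4 had 0 in all 10, where the 3 read pairs that a count of 0 allows correspond to 0.665 CPM in the shallowest LSK and 0.446 CPM in the shallowest LK library, an allowance for counting error only. Both passed the filter on low counts only in the MSC, where Atf3 stood at 526 and 731 CPM under PBS, and Fosb failed it there. So 8 members were tested in LSK and LK cells and 9 in the MSC.

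**Figure D1:**
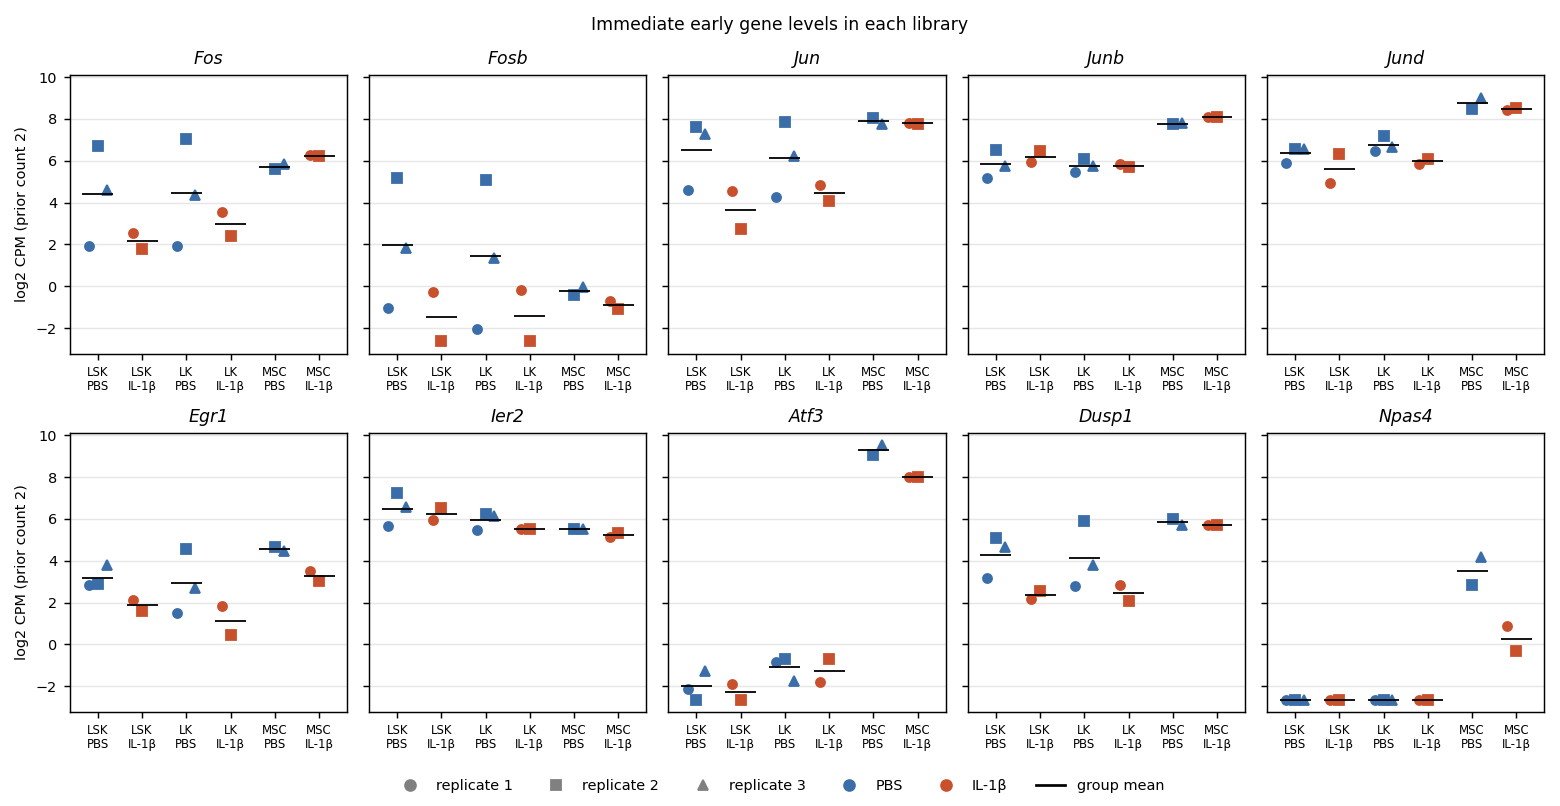
Level of each of the 10 genes in every library, as log2 CPM with a prior count of 2 (vertical axis), for LSK, LK and MSC under PBS (blue) and IL-1β (orange). Marker shapes give the replicate number and the bar is the group mean. Fos, Fosb, Jun and Dusp1 spread widely over the 3 PBS libraries of LSK and LK, while MSC libraries of a group lie close together except for Npas4.

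The spread between PBS libraries differed sharply among the members. In LSK cells the standard deviation (SD) of log2 CPM over the 3 PBS libraries was 3.10 for Fosb and 2.40 for Fos, 1.65 for Jun and 1.00 for Dusp1, against a median of 0.36 over the 13132 genes tested. Jund, at 0.38, was at that median, and Egr1, Junb and Ier2 lay between 0.52 and 0.80. In LK cells it was 3.58 for Fosb, 2.55 for Fos, 1.81 for Jun, 1.58 for Dusp1 and 1.54 for Egr1, against a median of 0.19 over 12835 genes. Those 5 members ranked at or above the 98.1 percentile of tested genes, while Junb, Jund and Ier2, with SDs of 0.32 to 0.40, ranked between the 70.0 and 77.4 percentiles. From the lowest to the highest PBS library Fos spanned 28.9-fold in LSK and 35.9-fold in LK cells, Jun 8.15-fold and 12.3-fold, and Junb 2.52-fold and 1.57-fold. With 2 libraries, the IL-1β groups of sorted cells had SDs of 0.53 and 0.83 for Fos and of 1.29 and 0.54 for Jun in LSK and LK cells. In the MSC the SD was at most 0.36 in either arm for the tested members other than Npas4, which reached 0.96.

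The high values of Fos, Fosb, Jun and Dusp1 came from the same replicate number in both populations. Of the 9 members with more than 3 read pairs in some library of the group, PBS library 2 was the highest for all 9 in LK cells. In LSK cells it was the highest for 7 of 9, and library 3 was the highest for the other 2, Egr1 and Atf3. Atf3 had at most 9 read pairs in any of these libraries, so its order says little. The same count over all genes was not made, and members that vary together are not separate evidence. The log2 CPM of PBS library 2 exceeded the mean of the other PBS libraries by 3.46 for Fos, 4.76 for Fosb, 1.69 for Jun and 1.17 for Dusp1 in LSK cells. In LK cells the excess was 3.89 for Fos, 5.44 for Fosb, 2.62 for Jun, 2.59 for Dusp1 and 2.45 for Egr1. The same difference had a median over all tested genes of 0 in LSK and 0.01 in LK cells, and for Egr1 in LSK cells it was -0.41. Among tested genes it ranked in LSK cells at the 99.5 percentile for Fos, 99.9 for Fosb, 96.1 for Jun and 91.9 for Dusp1. Junb ranked there at 90.1, Ier2 at 91.6 and Jund at 69.2. In LK cells the members just named with an excess ranked at 99.8 or above. LSK PBS library 2 also stood apart over all genes (chi-square per degree of freedom 109 and 112 against libraries 1 and 3, which gave 36.8 together). PBS library 1 stood at the other end, with a mean deviation over 7 members of -1.11 in LSK and -1.17 in LK cells on the log2 scale. Library 2 stood at 0.80 and 1.25, and library 3 at 0.30 and -0.07. Whether the LSK and LK libraries with the same number came from the same animals is not stated in the sources used here.

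**Figure D2:**
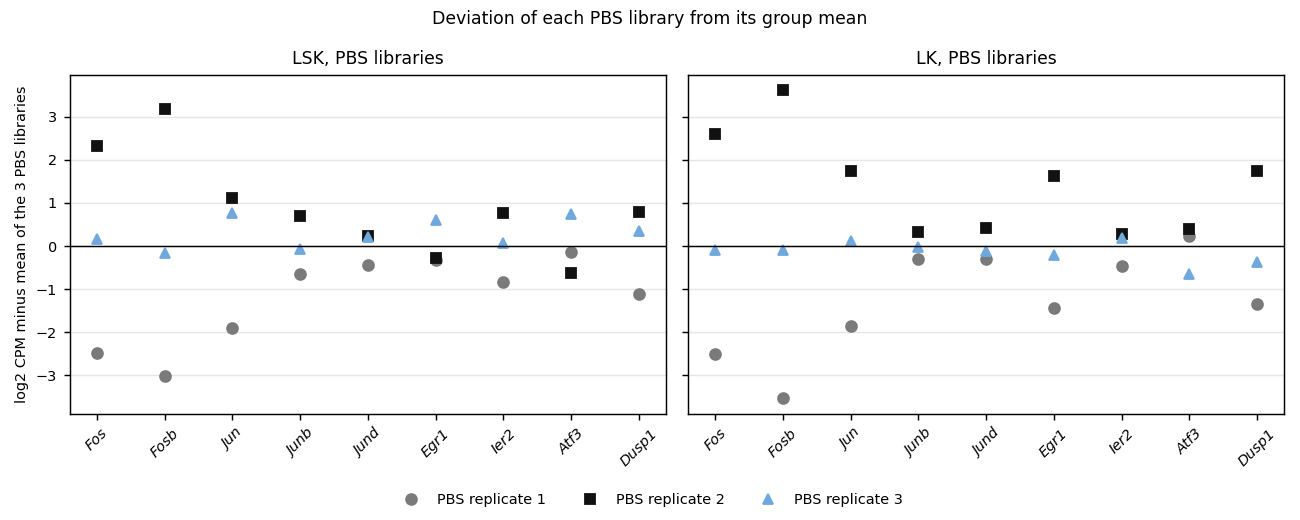
Deviation of each PBS library from the mean of its 3 PBS libraries, in log2 CPM (vertical axis), for 9 genes in LSK (left) and LK (right). Squares mark library 2, which is above the mean for every gene in LK cells, and circles mark library 1, which is lowest for most genes.

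Some other genes moved with that library. Hspa1a and Hspa1b, near-identical genes for the inducible heat shock protein HSP70 whose reads cannot be divided with certainty, were highest in PBS library 2 of both populations. Hspa1a stood at 4.05, 129 and 8.08 CPM in LK cells and at 3.24, 44.0 and 8.14 CPM in LSK cells under PBS. The summed level of the 12 chaperones on the list was highest in library 1 in LK cells, at 10800, 9050 and 7800 CPM, and in library 2 in LSK cells, at 6330, 7600 and 4510 CPM. Mitochondrially encoded genes took 0.710%, 1.36% and 0.529% of the counts in LK and 0.294%, 0.147% and 0.524% in LSK PBS libraries, so library 2 was the highest in LK and the lowest in LSK cells. The part of these heat shock genes in the members' levels was not tested. Over the deviations from group means in the 10 sorted libraries, the genes most like the mean of the 7 members tested in all 3 populations were Zfp36, Zfp286, Insl3, Tnni3 and Neat1 among 11176 genes. Their root-mean-square difference from it was 0.287 to 0.351 log2 units, where a flat profile gave 0.712. Some of these genes were low, so the prior count weighs on their log2 values. In LK cells under PBS, Insl3 stood at 0.468, 1.36 and 0.483 CPM and Zfp286 at 0.857, 2.51 and 1.73 CPM. Zfp36, whose product destabilises AU-rich mRNAs, stood at 6.16, 59.2 and 16.0 CPM in LK cells and at 26.7, 95.1 and 43.0 CPM in LSK cells under PBS. Over all 14 libraries centred on each gene's mean, the nearest were Zfp579, Zfp948, Ano8, Zdhhc1 and Traf5, at 0.504 to 0.573 against 1.11 for a flat profile.

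In LSK cells, IL-1β was set against PBS with edgeR's quasi-likelihood test over 13132 genes, and a gene was called at an adjusted p below 0.05 with a log2 fold change above 0.5 in size. Of the 8 members tested, 7 had a negative fold change, and their median was -1.78 against -0.06 over all genes, but 0 of 8 were called, where 0.632% of all genes were called. At an unadjusted p below 0.05 there were 5 of 8 (Fos, Fosb, Jun, Egr1 and Dusp1), against 18.5% of all genes, and DESeq2 called 1, Dusp1, against 6.7%. The log2 fold change was -3.25 ± 1.28 (SE) for Fos (edgeR adjusted p = 0.242) and -4.98 ± 2.06 for Fosb (edgeR adjusted p = 0.259). Jun, at -3.03 ± 0.94 (edgeR adjusted p = 0.171), Dusp1, at -2.17 ± 0.58 (edgeR adjusted p = 0.116, DESeq2 adjusted p = 0.00601), and Egr1, at -1.39 ± 0.55 (edgeR adjusted p = 0.230), were the 3 of 8 whose libraries did not overlap, all lower, against 21.1% of all genes lower without overlap. For Jun the gap was narrow, with 24.0 CPM in PBS library 1 and 23.2 CPM in IL-1β library 1. Jund had a log2 fold change of -0.62, Ier2 of -0.35 and Junb of 0.28, with edgeR adjusted p-values of 0.435, 0.690 and 0.724.

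These values depended on which PBS library was present. Without PBS library 1, the lowest, edgeR called 3 of 8 members in LSK cells: Fos at -3.78 ± 0.68 (edgeR adjusted p = 0.0377), Jun at -3.51 ± 0.50 (edgeR adjusted p = 0.00639) and Dusp1 at -2.54 ± 0.50 (edgeR adjusted p = 0.0321). Over all genes edgeR called 83 with every library, and no more than 480 with any single library left out. That bound holds for each fit in this paragraph that left out a library, and the share of all genes in each is not given here. Without PBS library 2, the highest, 7 members remained above the filter, since Fosb dropped out, and 0 were called. The log2 fold change of Fos was then -1.56, that of Jun -2.52, that of Dusp1 -1.75 and that of Egr1 -1.51, while Ier2 turned to 0.11. Over the 10 alternatives run the adjusted p ranged from 0.0377 to 0.822 for Fos, from 0.00639 to 0.765 for Jun and from 0.000484 to 0.528 for Dusp1 (edgeR or DESeq2). Of 9 neutrophil markers tested in the same comparison 4 were called higher, a count of 1 with either IL-1β library left out and of 5 without PBS library 2 or 3. Over all genes 0.32% were called higher with every library. The part of these markers, and of the summed levels given above, in the members' results was not tested.

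In LK cells the errors were wider than in LSK cells for Fos, Fosb, Jun, Egr1 and Dusp1 and narrower for Junb, Jund and Ier2. Of the 8 members tested, 7 had a negative log2 fold change, with a median of -2.15 against -0.03 over all genes, and 0 of 8 were called by edgeR, where 9.34% of 12835 genes were called. Jund alone, 1 of 8, had an unadjusted p below 0.05, against 24.7% of all genes, and DESeq2 called 1 of 8, Jund again, against 12.5%. Jund was at -0.75 ± 0.21 (edgeR adjusted p = 0.0721, DESeq2 adjusted p = 0.00727) and was the 1 member of 8 whose libraries did not overlap, where 29.5% of all genes were lower without overlap. The log2 fold change was -2.55 ± 1.95 for Fos (edgeR adjusted p = 0.515), -4.84 ± 3.16 for Fosb (edgeR adjusted p = 0.444) and -2.17 ± 1.36 for Jun (edgeR adjusted p = 0.435). Dusp1 was at -2.18 ± 1.25 and Egr1 at -2.13 ± 1.12, with edgeR adjusted p-values of 0.381 and 0.318. Ier2, at -0.37, and Junb, at 0.03, were near 0.

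Leaving out PBS library 2 shrank the LK differences. The log2 fold change became -0.45 ± 0.90 for Fos, -0.97 ± 0.79 for Jun, -0.88 ± 0.66 for Egr1 and -0.81 ± 0.45 for Dusp1, and the median of the 7 members still tested was -0.52. Jund, at -0.52 ± 0.13, was the lowest in adjusted p of these (edgeR adjusted p = 0.0790), and 0 of 7 were called. Over 10 alternatives its adjusted p ranged from 7.06e-08, with no filter on low counts, to 0.417 (edgeR or DESeq2). Without PBS library 1 all 8 values were negative, with a median of -2.60, and 0 of 8 were called. Among all genes edgeR called 1199 in LK cells with every library, and no more than 2409 with any single library left out. In the full comparison 7 of 10 neutrophil markers were called higher, where 6.77% of all genes were. Without PBS library 2 the marker count was 2. The part of these markers in the members' levels was not tested.

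**Figure D3:**
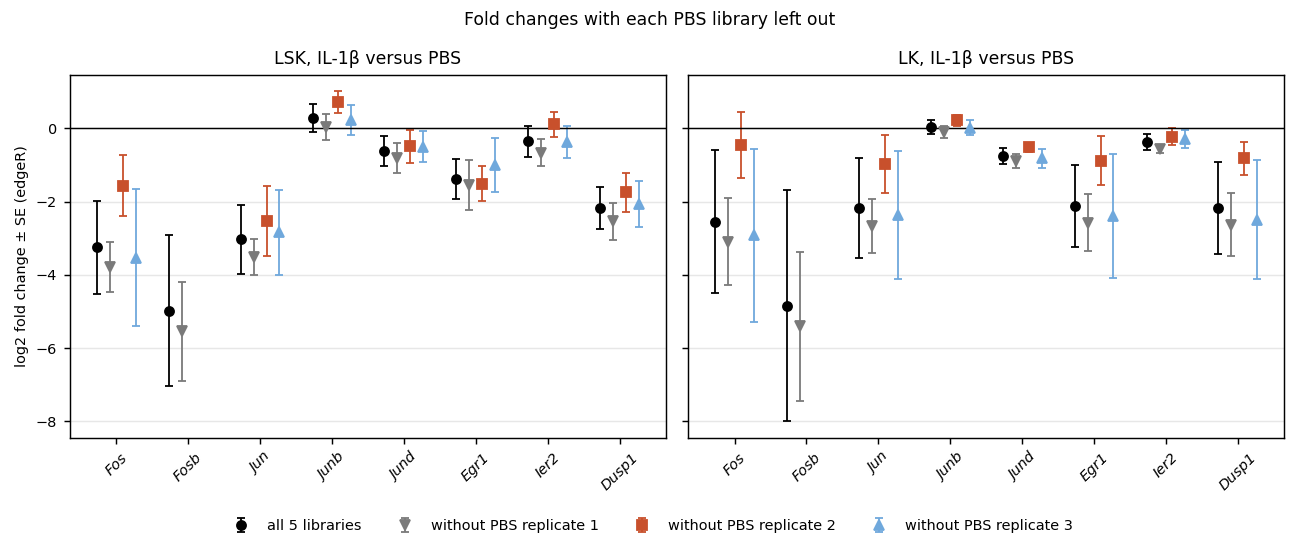
Log2 fold change of IL-1β against PBS with its SE (vertical axis) for the 8 members tested in LSK (left) and LK (right), from all 5 libraries and with each PBS library left out. Fosb has no value without library 2 or 3 because it then failed the filter. The LK values of Fos, Jun, Egr1 and Dusp1 move toward 0 without library 2, and the LSK errors of Fos, Fosb, Jun and Dusp1 shrink without library 1.

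LSK and LK cells were then compared within each treatment, in an unpaired fit of the 10 sorted libraries. Under PBS 0 of 8 members were called by edgeR, where 31.8% of 13839 genes were called, and 0 of 8 were called by DESeq2, where 33.5% were. The group means were close for Fos, at 44.1 ± 53.7 CPM in LSK and 51.8 ± 69.5 CPM in LK (SD, n = 3), and for Dusp1, at 22.3 ± 12.4 and 26.3 ± 28.2 CPM. Log2 fold changes of LSK over LK ran from -0.30 for Jund to 0.76 for Ier2, with SEs of 0.29 to 1.76. Ier2, at 98.3 ± 51.0 CPM in LSK and 62.7 ± 16.1 CPM in LK (SD, n = 3), was the 1 member with an unadjusted p below 0.05, against 42.9% of all genes (log2 fold change 0.76 ± 0.33, edgeR adjusted p = 0.0976). With the replicate number as a block, which pairs LSK and LK libraries by number, Ier2 was called (0.67 ± 0.21, edgeR adjusted p = 0.0242). It was also called without LSK PBS library 1 (0.99 ± 0.27, edgeR adjusted p = 0.0191), and over 11 alternatives its adjusted p ranged from 0.00899 to 0.403 (edgeR or DESeq2). Under IL-1β 0 of 8 members were called by edgeR or DESeq2 and 0 had an unadjusted p below 0.05, where 4.4%, 9.91% and 21.8% of all genes did. Ier2, at 0.75 ± 0.41, and Junb, at 0.47 ± 0.36, were the 2 of 8 that did not overlap, higher in LSK, where 26.6% of all genes were higher without overlap (edgeR adjusted p = 0.315 and 0.489).

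An interaction term compared the IL-1β response of LSK cells with that of LK cells. Its log2 values ran from -0.87 for Jun to 0.71 for Egr1, with SEs of 0.46 to 4.49. edgeR and DESeq2 called 0 of 8 members each and 0 had an unadjusted p below 0.05, where 0.0289%, 2.83% and 14.2% of all genes did. For the members with wide SEs a difference of several log2 units was not detectable with these libraries.

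In the MSC cultures 3 of the 9 members tested were called lower under IL-1β, by edgeR and by DESeq2 alike, and none was called higher. Over all 13239 genes edgeR called 11.4% in either direction and 4.31% lower, and DESeq2 called 5.04% lower. Atf3 stood at 526 and 731 CPM in PBS libraries 2 and 3, against 258 and 257 CPM in IL-1β libraries 1 and 2, so both treated libraries were below both controls. It fell by 1.32 on the log2 scale (SE 0.17, edgeR adjusted p = 0.00991). Egr1 stood at 24.9 and 21.7 CPM under PBS and at 11.1 and 7.92 CPM under IL-1β, without overlap. It fell by 1.31 on the log2 scale (SE 0.21, edgeR adjusted p = 0.0183). Npas4 stood at 6.91 and 18 CPM under PBS and at 1.65 and 0.634 CPM under IL-1β, from 35 and 197 read pairs against 40 and 6. Its libraries did not overlap, and it fell by 3.38 on the log2 scale (SE 0.60, edgeR adjusted p = 0.0275).

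None of the Fos and Jun family members tested in the MSC was called. Fos stood at 48.3 and 56.7 CPM under PBS and at 76.3 and 75.0 CPM under IL-1β, higher in both treated libraries. Its log2 fold change, 0.48 ± 0.11 (edgeR adjusted p = 0.0488), was below the size required for a call. Junb stood at 215 and 220.3 CPM under PBS and at 277 and 272 CPM under IL-1β, again without overlap (0.30 ± 0.10, edgeR adjusted p = 0.108). Jun stood at 261 and 219 CPM under PBS and at 219.9 and 219 CPM under IL-1β, and Jund at 359 and 510.1 CPM under PBS and at 341 and 361 CPM under IL-1β. Both overlapped, with log2 fold changes of -0.16 and -0.34 (edgeR adjusted p = 0.448 and 0.255). Ier2 stood at 46.2 and 45.6 CPM under PBS and at 35.4 and 40.4 CPM under IL-1β, and Dusp1 at 63.5 and 52.2 CPM against 51.4 and 51.5 CPM. Both were lower in the treated libraries without overlap, by little (-0.31 and -0.20, edgeR adjusted p = 0.184 and 0.390). Fosb, with 3 and 9 read pairs under PBS and 11 and 3 under IL-1β, was not tested. In all, 2 of the 9 members were higher without overlap and 5 lower, where 33.3% and 26.2% of all genes were.

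Leaving out a library of the MSC puts 1 library in an arm, which is then assumed to vary like the other arm, with 1 residual degree of freedom. With either IL-1β library left out, 0 members were called, and over all genes the count came down from 1515 to 38 or 82. Atf3 was then at -1.28 or -1.36 (edgeR adjusted p = 0.205 or 0.145), Egr1 at -1.54 or -1.15 (edgeR adjusted p = 0.185 or 0.215) and Npas4 at -4.27 or -3.00 (edgeR adjusted p = 0.199 or 0.220), without library 1 or 2 respectively. The log2 fold changes of the 9 tested members kept their direction with each of the 4 libraries left out. With the spread between libraries taken from the IL-1β arm alone, the log2 fold change was 0.59 for Fos without PBS library 3. For Jund it was -0.55 without PBS library 2. Over 8 alternatives the highest adjusted p was 0.205 for Atf3, 0.527 for Egr1 and 0.220 for Npas4, and for Fos and Jund it was 0.957 and 0.836 (edgeR or DESeq2). Of the 10 macrophage markers 6 were called higher under IL-1β (7 with either PBS library left out and 0 with either IL-1β library left out), and the summed level of the list was higher as given above, with Lyz2 at 8440 and 5825 CPM under PBS and 25060 and 24910 CPM under IL-1β. None of the 10 stood at 0. Over all genes 7.14% were called higher with every library. Which cells of the cultures held the members' mRNA, and the part of the macrophage markers in these results, were not tested. The difference between the MSC response and that of LSK or LK cells was not tested either.

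**Figure D4:**
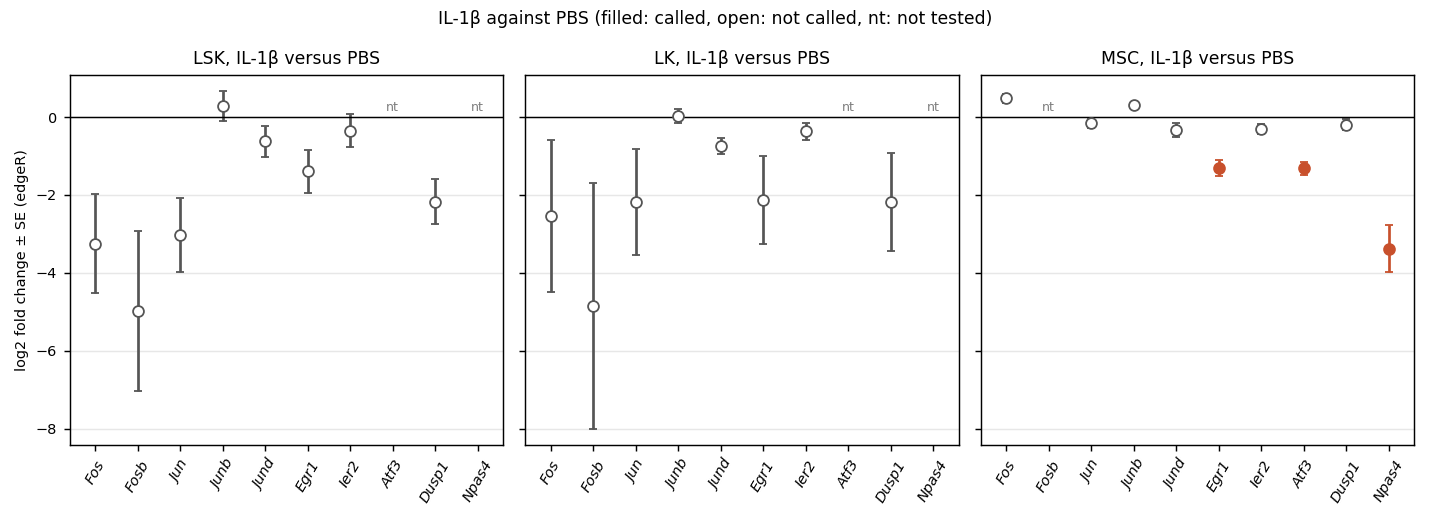
Log2 fold change of IL-1β against PBS with its SE from edgeR (vertical axis) for each member in LSK, LK and MSC. Filled points were called (Atf3, Egr1 and Npas4 in the MSC), open points were not, and nt marks members that failed the filter on low counts.

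Levels per kilobase of exon allow the members to be set in order. In LSK cells under PBS, Ier2 led at 64.5 CPM per kb, followed by Jund at 49.8, Jun at 39.0, Junb at 33.6 and Fos at 18.8. In LK cells under PBS, Jund at 66.6 CPM per kb was followed by Ier2 at 41.2, Jun at 34.2, Junb at 30.6 and Fos at 22.0. Dusp1, Egr1 and Fosb lay between 1.94 and 7.95 CPM per kb in both, and Atf3 at 0.0501 and 0.152. The order differed between single libraries: in LSK cells Jun was at 61.4 and Jund at 57.4 CPM per kb in PBS library 2, but at 7.53 and 35.8 in library 1. In the MSC under PBS, Atf3 at 292 CPM per kb and Jund at 260.0 were followed by Junb at 120.0, Jun at 75.3 and Ier2 at 30.1, with Fosb last at 0.113.

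A wider list of 52 immediate early genes was counted in the same tests. In LSK cells 1 of 42 tested members was called, against 0.32% of all genes higher: Id1, an inhibitor of helix-loop-helix factors, rose by 4.60 on the log2 scale (SE 0.67, edgeR adjusted p = 0.0207). Without LSK PBS library 2 that count was 4, and with either LSK IL-1β library left out it was 0. In LK cells 9 of 41 were called higher and 2 lower, where 6.77% and 2.57% of all genes were. Id1 rose by 2.52 there, the stress gene Gadd45b by 2.29 and the kinase gene Sgk1 by 1.98, while Klf4, a Krüppel-like factor, fell by 3.25 and Zfp36l1 by 1.1 (edgeR adjusted p = 0.00146 to 0.0239). Without LK PBS library 2 the counts were 7 and 1, and over all left-out libraries the higher count ran from 2 to 9 and the lower count from 0, with either IL-1β library left out, to 5, without PBS library 3. In the MSC 12 of 50 were called higher and 9 lower, against 7.14% and 4.31%. Socs3, a feedback inhibitor of JAK-STAT signalling, rose by 3.04, Ier3 by 2.28 and Nfkbiz, a nuclear regulator of NF-κB, by 1.5, while Egr2 fell by 1.97, Gadd45b by 1.21 and the kinase gene Plk2 by 1.13 (edgeR adjusted p = 0.000584 to 0.0419). Without one IL-1β library of the MSC these counts came down to as few as 1 and 0. Between LSK and LK cells under PBS, 16 of 43 were called higher in LSK and 0 lower, where 19.4% and 12.4% of all genes were, led by Dusp4 at 4.98, Dusp5 at 2.91 and Socs3 at 2.56 (edgeR adjusted p = 0.000519 to 0.000818). Under IL-1β 4 of the 43 were called higher and 0 lower, against 2.13% and 2.27%.

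The genes around AP-1 were counted in the same way, against the same shares of all genes: 0.632% called in LSK cells, 6.77% higher and 2.57% lower in LK cells, and 7.14% and 4.31% in the MSC. Of 14 AP-1 partners, 0 of 10 tested were called in LSK cells, and in LK cells 1 of 9 was called higher, Jdp2 at 1.79, and 1 lower, Mafk at -0.50. In the MSC 3 of 14 were called higher and 0 lower: Batf2 rose by 1.75, Batf by 1.63 and Fosl2, a further Fos family member, by 0.69 (edgeR adjusted p = 0.0160 to 0.0243). Of 25 upstream factors and kinases, 0 were called in LSK cells, 4 higher in LK cells, led by the ribosomal S6 kinase genes Rps6ka3 at 1.55 and Rps6ka1 at 1.08, and 2 higher and 1 lower in the MSC. Without LK PBS library 2 the LK partners called numbered 0 in both directions and the LK kinases 2. Of 17 AP-1 target genes, 0 of 10 tested were called in LSK cells, and in LK cells Vegfa rose by 0.93 and Ccnd1 fell by 1.08. In the MSC 6 of 16 were called higher and 2 lower: the cytokine gene Il6 rose by 6.34 (SE 0.30), the collagenase gene Mmp13 by 2.86 and Vegfa by 1.52, while the cyclin gene Ccnd1 fell by 1.64 and Plaur by 0.82 (edgeR adjusted p = 0.00091 to 0.0430). Among 12 stress chaperones, 0 of 11 were called in LSK cells, Hspa5 rose by 1.19 and Dnajb1 fell by 0.72 in LK cells, and Bag3 and Hspe1 fell by 0.83 and 0.76 in the MSC. With single libraries left out, the LK counts ran from 0 to 1 for targets in each direction and for chaperones higher, and from 0 to 3 for chaperones lower. In the MSC they ran from 0 to 5 for partners higher, 0 to 4 for kinases higher, 1 to 11 for targets higher and 0 to 3 for chaperones lower. The LSK counts stayed at 0 for these lists, except for 1 chaperone called lower without PBS library 1 or 3.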

How the data were processed

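Gene-level counts were deposited by the authors as read pairs per Ensembl gene, in tables that also give each gene's exon length. The submitters' processing notes and the study's methods name fastp 0.20.0, HISAT2 2.0.1, SAMtools 1.10 and featureCounts 2.0.2 with reverse-strand counting of read pairs, genome build GRCm38 and Ensembl annotation. No value was normalized before deposit. The 10 genes, the marker lists and the other gene lists were chosen with earlier results of these data known. All named symbols were resolved in the tables, 4 of them through RefSeq synonyms. Levels are CPM with TMM factors over all 14 libraries. Log2 CPM used a prior count of 2. Tests were edgeR 4.0.16 quasi-likelihood fits (filterByExpr, TMM and robust dispersions within each comparison) with Benjamini-Hochberg adjustment over all genes tested, in R 4.3.3, with DESeq2 1.42.0 as an alternative. The SE was the log2 fold change divided by the square root of F. The fits were tested on simulated counts. The thresholds, adjusted p below 0.05 and log2 fold change above 0.5 in size, and the split by population follow the study's methods, which used DESeq2.

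The named genes were the 10 members in every comparison, and from each list at most the 3 largest rises and 3 largest falls among called genes with a mean of at least 1 log2 CPM. Genes most like the members were the 5 with the smallest root-mean-square difference from the members' mean profile. Col1a1, Lepr, Ly6a, Kit, Lyz2, Hspa1a and Hspa1b were named outside that rule, after their values were seen. Replicate pairs of every group differed by more than counting noise (chi-square per degree of freedom 5.20 to 112), so no library was merged. Deviations from the group means of LSK and LK libraries of the same number correlated over 11183 genes at 0.22, 0.13 and 0.51 under PBS and 0.12 and 0.12 under IL-1β. Pairs of unlike number reached 0.19 and 0.15 under PBS, above the 0.13 of pair 2, and the 2 IL-1β values are equal by construction, so the data give only a weak hint of pairing. The main fits of LSK against LK were therefore unpaired, and the number was used as a pairing only in the replicate block alternative. Within a population the number joins a PBS and an IL-1β library, whose mice were treated differently. An IL-1β MSC library 3 named in a table header was not analysed here, and 0 columns of counts were left unused. Alternatives were DESeq2, its size factors, no filter on low counts, a replicate block, a joint fit, and each library left out in turn. The list counts without single libraries, and LSK against LK and the interaction without both PBS libraries 2, were added after seeing the data. Depth sets the precision of low genes, and counting error alone underlies the detection limits. Figures were drawn with matplotlib 3.10.9.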

Additional observations from a re-analysis of the deposited data

Results flagged for a closer look

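Among the genes named above, Gadd45b and Id1 were called in opposite directions in sorted cells and MSC, with every treated library on the other side of every control. Gadd45b changed by 2.29 on the log2 scale in LK cells and by -1.21 in the MSC. Id1 changed by 4.60 in LSK cells, by 2.52 in LK cells and by -1.01 in the MSC. The difference between these responses was not tested, and the sorted cells came from treated animals while the MSC were treated in culture. Of the 7 immediate early genes tested in all 3 populations, none showed opposite, non-overlapping responses in sorted cells and MSC.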

How the results depend on the processing

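DESeq2's size factors changed no call of a member. The count of members called, 0 in LSK cells, was 1 with DESeq2 and 1 with no filter on low counts (Dusp1 in each), and ranged from 0 to 3 with single libraries left out. In LK cells, 0 became 1 with DESeq2 and 1 with no filter (Jund in each), and stayed 0 with each library left out. In the MSC, 3 became 1 in the joint fit of all 14 libraries (Atf3), and ranged from 0 to 4 with libraries left out. For LSK against LK under PBS, 0 became 1 with no filter (Ier2) and ranged from 0 to 1. Over all genes, the LSK count of 83 was 870 with DESeq2, 869 with no filter, 1228 in the joint fit of the sorted libraries, and 3 to 480 with libraries left out. The LK count of 1199 was 1844 with no filter, 489 in the joint fit and 66 to 2409. The MSC count of 1515 was 2354 with no filter, 424 in the joint fit and 38 to 3819. LSK against LK gave 4394 under PBS (2741 to 4607) and 609 under IL-1β (1317 with DESeq2, 1410 with no filter, 89 to 391). The interaction gave 4, and 324 with DESeq2, 398 with no filter, 0 to 336 with libraries left out and 0 without both PBS libraries 2. The replicate block within a population joins libraries that share only a number: it gave 1 member (Dusp1) and 702 genes in LSK cells and 1 member (Jund) and 2331 genes in LK cells. Between LSK and LK the block called 1 member, Ier2, under PBS, and 24 genes in the interaction. No blocked fit of the MSC was possible because its arms share only library 2. Near 0, Ier2 in LSK cells moved between -0.66 and 0.11, Junb in LK cells between -0.10 and 0.22 and Junb between LSK and LK under PBS between -0.15 and 0.43 with libraries left out. Of the 8 members, the sign of the fold change turned under some alternative for 6 between LSK and LK under PBS, 4 under IL-1β and 7 in the interaction, but for 1 in LSK, 1 in LK and none of 9 in the MSC against PBS. The cause was not tested. Depth limits Fosb, Atf3 and Npas4 in sorted cells, where few or no read pairs were counted.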
